A study of Mus musculus with 13 samples.

Results

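The 31 genes described here were listed by name as glycolytic and hypoxia-induced genes, and all 31 had a row among the 23211 genes counted. They comprise 4 carriers of glucose and lactate, 10 genes of upper glycolysis, 8 genes of lower glycolysis and pyruvate use, and 9 genes of the hypoxia response. The RNA came from cells that a flow cytometer sorted out of the tissue next to implants in mouse tibiae (Mus musculus). The series title calls them Lin negative and LEPR positive, LEPR being the leptin receptor, which marks stromal cells of the bone marrow. Of the 13 libraries, 7 came from fibrous tissue labelled PMMA (fibrous 1 to 7) and 6 from bone labelled Pressfit (bone 1 to 6). No genotype, strain, age, sex or time after implantation is given in the sources used here, nor whether libraries came from separate animals, so p-values measure the spread between libraries, which may be technical.

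Library names fall into 2 series. The L002 series holds 4 bone and 5 fibrous libraries, and the XY9274 series holds 2 of each (bone 5, bone 6, fibrous 6 and fibrous 7). Within L002, the names of bone 3, bone 4 and fibrous 5 hold the token Lin, and those of bone 1, bone 2 and fibrous 2, 3 and 4 hold the token plus. The name of fibrous 1 holds neither. The labels do not say what the tokens mark, and all 13 libraries carry the label LepR+, so these groups are called Lin-named and plus-named here.

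Glycolysis splits glucose into pyruvate in the cytosol and yields ATP without oxygen. Under low oxygen the prolyl hydroxylases encoded by the Egln genes stop marking HIF-1 alpha, the product of Hif1a, for destruction. The stabilised factor then binds a short DNA core and raises transcription of glucose carriers, most glycolytic enzymes and genes such as Vegfa and Car9. Hif1a itself is controlled mainly at the level of its protein, so its mRNA does not report HIF activity. Bone marrow is a low-oxygen tissue, and its erythroid cells lose their mitochondria as they mature into red cells.

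The HIF core is shown here because it is the sequence through which members can share control. Promoter windows of 300 bases, from 250 before to 50 after each RefSeq transcript start (GRCm38.p6), were found for 28 of the 31 members by symbol. Bnip3l, Ndrg1 and Slc2a3 had no entry. Both strands were searched for ACGTG and for GCGTG. The lines give 30 bases around a match for 10 members described below, 5′ to 3′ on the gene's strand, with the match, or its reverse complement CACGT or CACGC, in capitals.
Slc2a1: gtcccgccccggACGTGctccccaggcccc
Ldha: cgtgggttcccgCACGTccgctgggctccc
Pkm: ctccgatccggtCACGTccgcgccgcagca
Eno1: ttggagtgatggCACGCtgagccaatgggg
Gapdh: cacacgcttggtGCGTGcacatttcaaaaa
Slc16a1: cggcgccgggtcACGTGgcgggaagggggg
Vegfa: ggagtgcgtgccCACGTcagagagcaacat
Car9: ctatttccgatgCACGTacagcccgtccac
Egln3: tgtgcatctcagACGTGagatccaggtttt
Hif1a: tggctgagagcaACGTGggctggggtgggg

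The Slc2a1 site lies at chr4:119108697-119108726 on the plus strand, with its match starting 36 bases upstream of the start. The Ldha site is at chr7:46845758-46845787 (plus strand, 34 bases upstream), the Pkm site at chr9:59657140-59657169 (plus, 75 bases) and the Eno1 site at chr4:150237123-150237152 (plus, 62 bases). The Gapdh site is at chr6:125165800-125165829 (minus strand, 44 bases), the Slc16a1 site at chr3:104638453-104638482 (plus, 199 bases) and the Vegfa site at chr17:46025357-46025386 (minus, 211 bases). The Vegfa distance is from a transcript start inside the gene. The Vegfa window that spans the gene's 5′ end (chr17:46032328-46032627) held neither core, nor did a further Pkm window (chr9:59656326-59656625). The Car9, Egln3 and Hif1a sites are at chr4:43506996-43507025 (plus, 18 bases), chr12:54204086-54204115 (minus, 229 bases) and chr12:73907785-73907814 (plus, 70 bases).

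ACGTG was in a window of 21 of the 28 members (75.0%), against 21.8% of all genes with a window and 29.4% of the genes tested between tissues. GCGTG was in 17 (60.7%), against 35.2% and 55.4%. Either core was in 25 (89.3%), against 46.7% and 67.0%. A gene was counted here if any of its windows matched. Per window, ACGTG was in 57.1% for the members and 25.4% for the genes tested. These shares were 52.4% and 49.4% for GCGTG, and 78.6% and 60.9% for either core. Part of the ACGTG matches belong to CACGTG, the E-box that other factors bind, which was in 6 members (21.4%) and in 11.8% of the genes tested, the Slc16a1 site among them. The windows of Tpi1, Gpi1 and Eno2 held neither core. The members were listed as hypoxia-induced and glycolytic genes, so these shares describe the list, and a match is not evidence of binding. The median GC content was 62.2% in the members' windows, 60.7% in those of the genes tested and 52.7% in all windows.

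Libraries held 16162321 to 44302166 counts (bone 16162321 to 43217004, fibrous 18056208 to 44302166). Levels below are normalised CPM, the counts per 1000000 counts of the library's total after TMM scaling. Lepr, the gene of the sort marker, was under 5 CPM in 5 libraries: the 3 Lin-named ones, bone 5 and fibrous 1. The summed level of 11 erythroid marker genes ran from 3999 CPM in bone 5 to 616088 CPM in bone 4, and that of 12 neutrophil genes from 697 CPM in fibrous 1 to 96301 CPM in bone 5. In bulk RNA, fewer cells of a type and less RNA per cell cannot be told apart.

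The members covered a wide range of levels. Per kilobase of exon, the median over the 13 libraries was highest for Ldha, lactate dehydrogenase A, at 412 CPM per kb, and its lowest library (246) was above the highest library of Slc16a1 (240). Slc16a1, the lactate and pyruvate carrier MCT1, followed at 145, then the glycolytic enzyme genes Gapdh at 142, Aldoa at 136 and Tpi1 at 136 CPM per kb. These 4 medians differed by far less than the spread of each gene over libraries, which for Gapdh was 103 to 223 CPM per kb. Pkm, Bnip3l and Eno1 had medians of 90.8, 75.7 and 75.4 CPM per kb with ranges that overlapped. The genes of the hypoxia response other than Bnip3l were far lower, with medians of 6.49 for Bnip3, 6.30 for Vegfa, 5.995 for Hif1a, 1.97 for Ndrg1, 1.87 for Egln1, 0.930 for Car9, 0.890 for Egln3 and 0.753 CPM per kb for Ankrd37.

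Most paralogues that carry out the same step differed strongly in level. Hk1, the broadly expressed hexokinase, had a median of 26.9 CPM per kb against 0.462 for Hk2, the inducible form. Among phosphofructokinase subunits, Pfkm had 41.2, Pfkl 21.9 and Pfkp 3.15 CPM per kb. The order of Pfkm and Pfkl rests on the exon lengths, since their median CPM were 137.5 and 146.2. Their ranges over libraries also overlapped, at 15.0 to 55.7 and 13.3 to 47.0 CPM per kb. Aldoc and Eno2, best known from neurons, had 1.49 and 0 CPM per kb, against 136 for Aldoa and 75.4 for Eno1. Eno2 had counts in 6 of the 13 libraries and reached 6.66 CPM in bone 1, with at most 1.24 CPM in any other library. Part of the Eno1 signal may be shared with the near-identical copy Eno1b, whose own row held 1.59% to 2.29% of the joint counts per library.

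The members also differed in how far their libraries lay apart. The ratio of the highest to the lowest library was smallest for 5 enzymes of the main chain: 2.17 for Gapdh, 2.54 for Tpi1, 2.58 for Ldha, 2.87 for Aldoa and 3.04 for Pgk1. Other enzymes of the chain ranged more widely, at 8.73 for Pkm, 10.6 for Pgam1 and 16.4 for Gpi1, against 3.87 for the carrier Slc16a1. Of the 25 members above 0 in every library, 10 stayed under a 5-fold range. At the other end, the ratio was 393 for Ndrg1, 330 for Vegfa, 291 for Aldoc, 161 for Hif1a and 149 for Slc2a1, and 6 members (Pfkfb3, Eno2, Car9, Egln1, Egln3 and Ankrd37) had at least 1 library at 0. These 5 ratios rest on few counts in the lowest library. That was bone 4 for Ndrg1, Vegfa and Hif1a (1, 4 and 8 counts), bone 6 for Aldoc (2) and fibrous 5 for Slc2a1 (6). The SD over libraries of log2(CPM + 1) had a median of 1.03 over the members and 0.81 over all genes tested, and 11 of the 31 members were below the latter. Bone 5 held the highest value of 9 members, bone 1 of 8 and bone 2 of 7, and bone 4 and fibrous 1 the lowest value of 6 each.

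**Figure D1:**
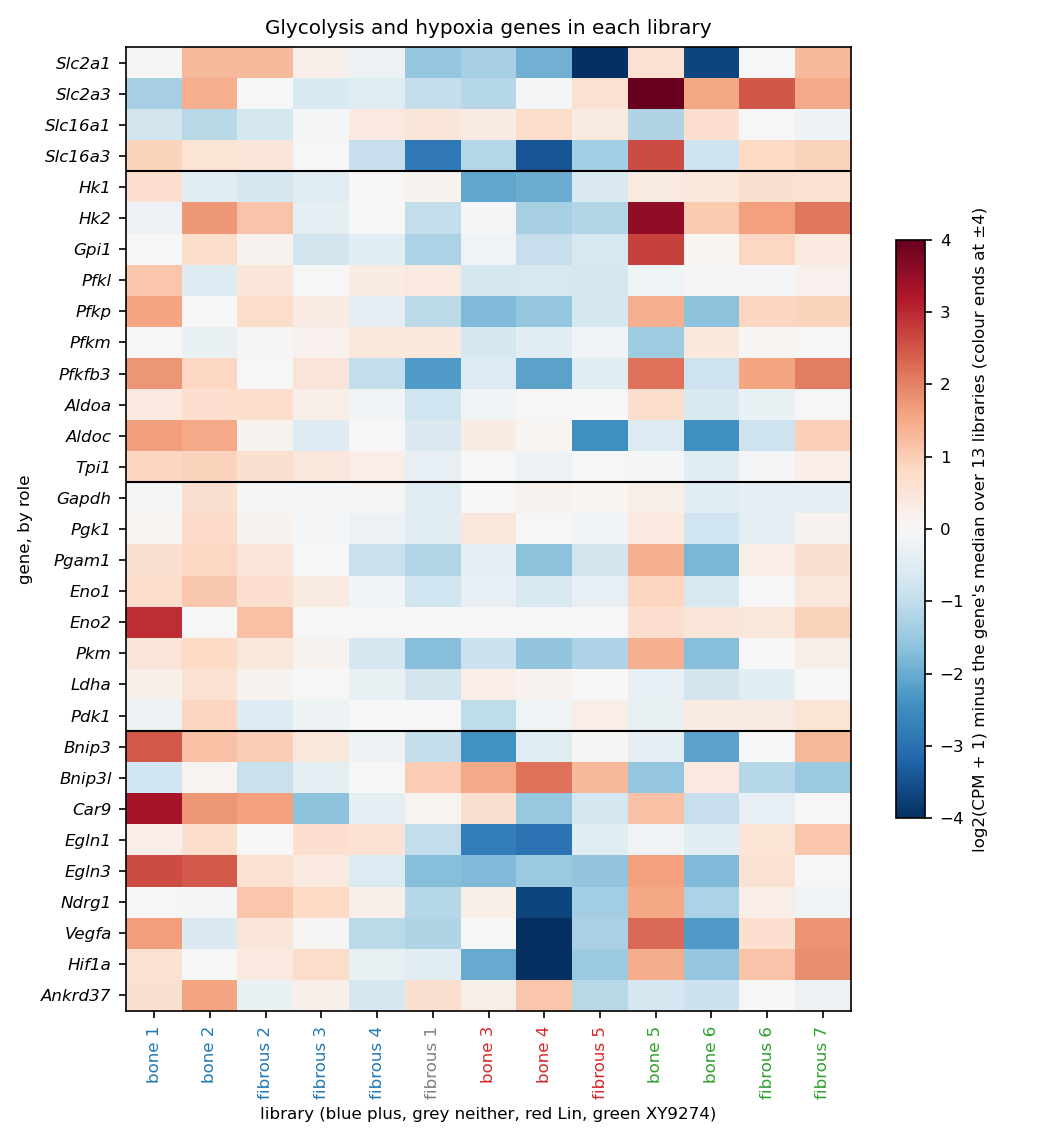
Level of each of the 31 members (rows, grouped by role: carriers, upper glycolysis, lower glycolysis and pyruvate use, hypoxia response) in each of the 13 libraries (columns, ordered by name series and token). Colour is log2(CPM + 1) minus the gene's median over the libraries, with the colour scale ending at 4 in both directions. Gapdh, with a 2.17-fold range, is almost without colour, while Vegfa, Hif1a and Slc2a1 are deep blue in 1 or 2 libraries, and Bnip3l is red in the 3 Lin-named libraries.

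The first comparison asked whether fibrous and bone libraries differed. No member passed the test: 0 of 31 by edgeR's quasi-likelihood test with the name series as a term (Benjamini-Hochberg adjusted p under 0.05), where 0 of 13294 genes (0%) passed. No member had an unadjusted p under 0.05, against 636 of all genes tested. DESeq2 called 169 genes (1.27%) and limma-voom 0 (1151 at an unadjusted p under 0.05), and neither called a member. Fitted fold changes (log2, fibrous minus bone) were below 0 for 22 of 31 members and for 48.1% of all genes, with a median of -0.28 for the members and 0.03 for all genes. With limma-voom, which weights libraries by quality, the members' median was 0.13 and 11 were below 0. The libraries of both tissues overlapped for all 31 members, and the 2 tissues were fully apart for 0.0677% of all genes tested.

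Among the carriers, Slc2a1 (chr4:119108711-119137983), the glucose carrier GLUT1, ran from 0.765 through a median of 15.1 to 54.7 CPM in bone and from 0.369 through 21.6 to 55.1 CPM in fibrous tissue. Both tissues thus spanned nearly the same range. Its log2 fold change was 0.29 (SE 0.97, n = 7 and 6, edgeR adjusted p = 0.969). It was -0.11 within the L002 series alone, -0.03 without bone 6 and -0.19 without fibrous 2. The other carriers had log2 fold changes of -0.63 (Slc2a3), -0.62 (Slc16a3, the lactate exporter MCT4) and 0.08 (Slc16a1).

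In upper glycolysis, the smallest p belonged to Gpi1 (chr7:34201330-34230336), glucose-6-phosphate isomerase. It ran from 89.3 through 174.2 to 1143 CPM in bone and from 69.9 through 126.7 to 299 CPM in fibrous tissue. A single library, bone 5, set the top of the bone range. The log2 fold change was -0.79 (SE 0.41, edgeR adjusted p = 0.873) and -0.32 without bone 5. Pfkm (chr15:98092589-98132451), a phosphofructokinase subunit, had 112 ± 46.7 CPM in bone and 153 ± 23.2 CPM in fibrous tissue (SD, n = 6 and 7), with a log2 fold change of 0.45 (SE 0.26, edgeR adjusted p = 0.873), or 0.74 without bone 6. The 8 other genes of this step lay between -0.79 (Aldoc) and 0.23 (Hk1).

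In lower glycolysis, 7 of 8 members were below 0, Pdk1 being the exception at 0.07. Gapdh (chr6:125161715-125166467), glyceraldehyde-3-phosphate dehydrogenase, had 639 ± 164 CPM in bone and 531 ± 85.5 CPM in fibrous tissue, a log2 fold change of -0.28 (SE 0.18, edgeR adjusted p = 0.873). Pgk1 (chrX:106187100-106203699), phosphoglycerate kinase, had 73.7 ± 24.6 and 57.6 ± 9.22 CPM, a log2 fold change of -0.35 (SE 0.23, edgeR adjusted p = 0.873). Ldha (chr7:46841475-46855627) ran from 820 to 2096 CPM in bone and from 814 to 1507 CPM in fibrous tissue. Its log2 fold change was -0.22 (SE 0.22, edgeR adjusted p = 0.901), and 0.24 within the XY9274 series. The bone libraries varied more than the fibrous ones for each of these 3 enzymes, as their SDs show, with 449 CPM in bone and 251 CPM in fibrous tissue for Ldha.

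Among hypoxia genes, Hif1a (chr12:73901375-73947530) ran from 0.803 to 99.7 CPM in bone and from 12 to 130 CPM in fibrous tissue. Its log2 fold change was 0.62 (SE 0.73, edgeR adjusted p = 0.921), so the error was larger than the difference, with 0.32 without bone 4 and 1.11 without bone 1. Vegfa (chr17:46016993-46032369), the main angiogenic growth factor, ran from 0.401 through 22.4 to 132 CPM in bone and from 10.3 through 27.8 to 97.0 CPM in fibrous tissue. Its sign was not stable: -0.51 (SE 0.86, edgeR adjusted p = 0.934), but 1.26 by limma-voom, 0.28 without bone 1 and 0.03 without the 5 libraries low in Lepr. Car9 (chr4:43506966-43513729), the membrane carbonic anhydrase that exports acid, had 8.41 ± 11.2 CPM in bone and 2.45 ± 2.90 CPM in fibrous tissue, with a log2 fold change of -1.67 (SE 1.21, edgeR adjusted p = 0.873), or -0.80 without bone 1. Bnip3l (chr14:66985239-67008877), a mitophagy receptor, had 519 ± 469 and 317 ± 241 CPM, a log2 fold change of -0.82 (SE 0.51, edgeR adjusted p = 0.873), or -0.49 without bone 4 and -0.53 without bone 6.

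Other cell types moved with the tissue in part, none of them past the test. All 12 neutrophil and all 10 pan-leukocyte markers had fold changes below 0 in fibrous against bone (medians -1.78 and -1.54, against 48.1% of all genes below 0), and all 12 marrow stromal and 11 osteoblast markers above 0 (medians 1.92 and 1.07). The neutrophil sum ran from 1568 to 96301 CPM in bone and from 697 to 24246 CPM in fibrous tissue. With erythroid and pan-leukocyte scores as terms, the members' median was -0.14 and 0 genes passed. No test of a difference between the name series in the tissue effect passed either (0 of 13294 genes by edgeR, 292 at an unadjusted p under 0.05, 0 of them members).

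**Figure D2:**
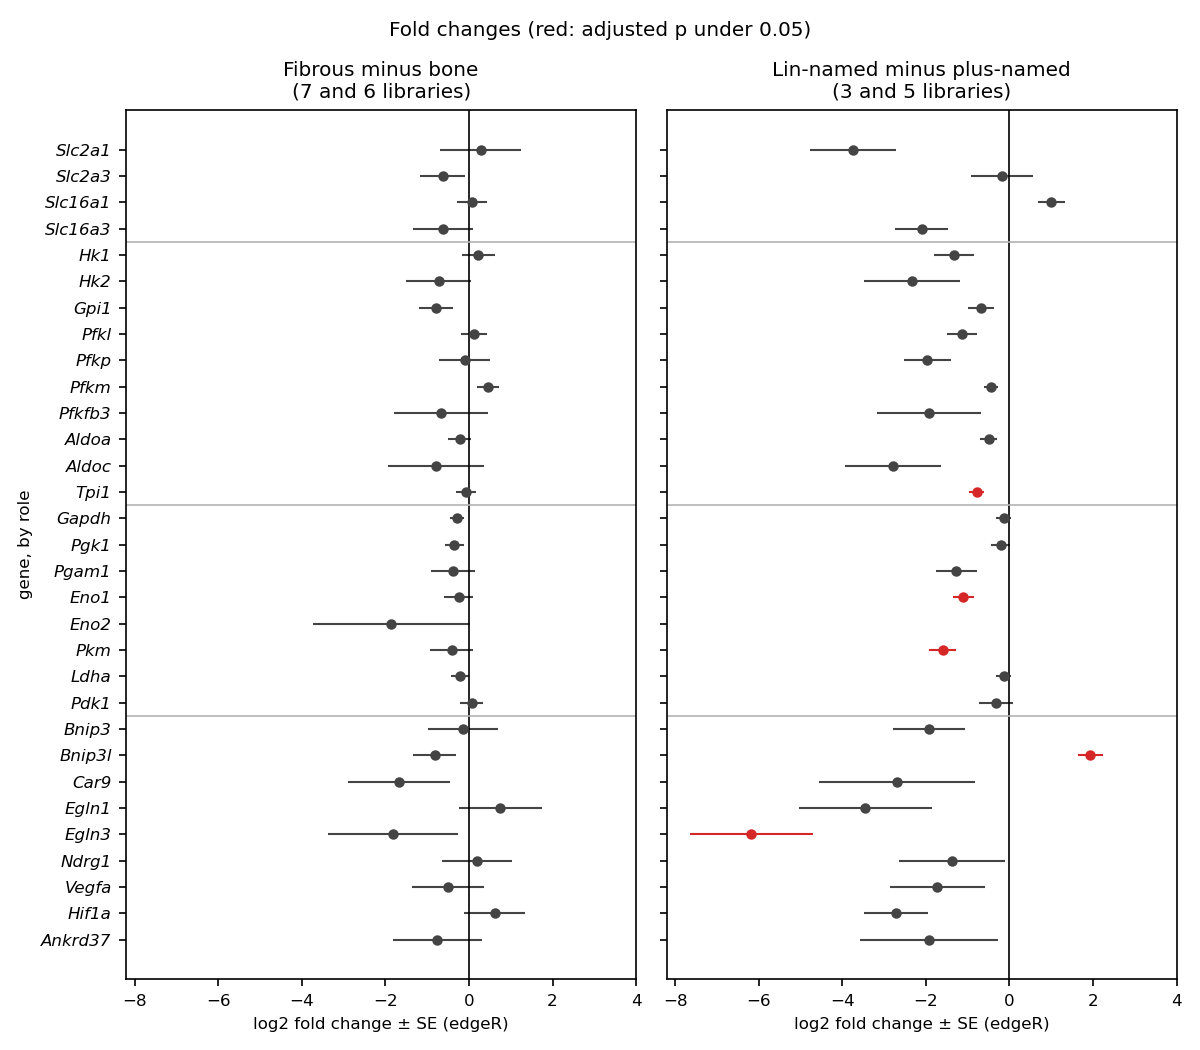
Log2 fold change (point) and its SE (bar) of each member from edgeR, for fibrous minus bone (left, 7 and 6 libraries) and Lin-named minus plus-named (right, 3 and 5 libraries); red marks an adjusted p under 0.05. On the left no member is red and most bars reach 0, while on the right 28 of 30 points lie below 0 and Bnip3l, at 1.94, is red on the other side.

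The second comparison set the 3 Lin-named libraries against the 5 plus-named ones within the L002 series, with tissue as a term. Here 5 of the 30 members tested passed edgeR's test, against 8.16% of 13450 genes. Bnip3l rose (1 of 30, against 3.15% of genes called higher), and Pkm, Tpi1, Eno1 and Egln3 fell (4 of 30, against 5% called lower). None of these 5 passed with a replicate block for the 2 pairs of libraries that share a further name token (edgeR adjusted p = 0.0912 for Bnip3l, 0.123 for Pkm, 0.226 for Tpi1, 0.172 for Eno1 and 0.281 for Egln3), where their log2 fold changes were 2.12, -2.03, -0.89, -1.40 and -5.73. Every other library was a block of its own there, so only the 2 pairs informed the token effect. Few degrees of freedom were left, so a lost call in that fit says little about a gene. None of the 5 passed with an erythroid score as a term either, as given with the marker sums below. Over all members tested, 28 of 30 fold changes were below 0, against 56.6% of genes, with a median of -1.35 against -0.21 for all genes. The libraries did not overlap for 11 members, with Bnip3l above and 10 below (Slc2a1, Slc16a3, Pfkl, Pfkp, Tpi1, Eno1, Pkm, Egln1, Egln3 and Hif1a). Among all genes, 25.4% did not overlap, with 12.2% wholly above and 13.3% wholly below. Eno2 had no count in the Lin-named libraries and did not pass the filter on low counts.

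The scaling between libraries mattered for the level of all genes. With library totals in place of TMM factors the median of all genes was -0.69 and that of the members -1.79, and the share of calls that were higher was 10.3% of 1055 in place of 38.6% of 1097. Bnip3l was 1.44 under that scaling and kept its call. DESeq2 called 14 members (25.7% of genes) and limma-voom 4 (4.21%). The direction was the same within both of these pairs (bone 2 with bone 4, fibrous 2 with fibrous 5) for 26 members, of which 24 were lower in the Lin-named library and Bnip3l and Slc16a1 higher. Slc2a3, Hk1, Gapdh and Pdk1 had opposite signs in the 2 pairs. Eno2 had no count in bone 2 or bone 4 and was lower in fibrous 5 than in fibrous 2. The share of all genes with the same direction in both pairs was not counted, so these counts do not set the members apart.

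Bnip3l (ENSMUSG00000022051), also called Nix, marks mitochondria for autophagy and is needed to clear them from maturing red cells. It had 838, 1316 and 719 CPM in the Lin-named bone 3, bone 4 and fibrous 5. In the plus-named bone 1, bone 2, fibrous 2, fibrous 3 and fibrous 4 it had 168, 312.5, 158, 226 and 292 CPM. The lowest Lin-named library was thus well above the highest plus-named one. The means were 958 ± 316 and 231 ± 70.2 CPM (SD, n = 3 and 5), with a log2 fold change of 1.94 (SE 0.30, edgeR adjusted p = 0.0197). The call was lost without bone 3, bone 4 or fibrous 3 (adjusted p = 0.0560, 0.0586 and 0.0561), over a range of 1.71 to 2.16 in log2 fold change with any library left out.

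Its relative Bnip3, the mitophagy receptor that low oxygen induces through HIF, lay on the other side. Bnip3 had 1.93, 10.3 and 15.1 CPM in the Lin-named libraries and 84.4, 34.4, 30.2, 20.3 and 12.6 CPM in the plus-named ones, in the order given above. Fibrous 4 alone of the plus-named libraries fell within the Lin-named range. The log2 fold change was -1.93 (SE 0.86, edgeR adjusted p = 0.193), which did not pass.

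Pkm (chr9:59656368-59679375), pyruvate kinase of most tissues, had 252, 152 and 194 CPM in the Lin-named libraries and 637, 784, 617, 496 and 286.5 CPM in the plus-named ones. Every Lin-named library was lower, by a small margin for fibrous 4. The log2 fold change was -1.60 (SE 0.32, edgeR adjusted p = 0.0302). Eno1 (chr4:150236721-150248879), the ubiquitous enolase, had 324, 259 and 321 against 660.5, 866, 652, 525.7 and 376 CPM, a log2 fold change of -1.11 (SE 0.25, edgeR adjusted p = 0.0411). Tpi1 (chr6:124810586-124814296), triose-phosphate isomerase, had 375, 329 and 373 against 688, 712, 579, 512 and 451 CPM, a log2 fold change of -0.79 (SE 0.17, edgeR adjusted p = 0.0363). These 3 calls were sensitive to single libraries: with 1 of the 8 left out in turn, Pkm and Eno1 passed only without fibrous 4, and Tpi1 only without fibrous 4 or fibrous 5, with adjusted p from 0.0143 to 0.143 over the 3 genes.

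Not every enzyme of the chain was lower. Gapdh had 587, 648.5 and 619 CPM in the Lin-named libraries and 559, 922, 606.5, 553 and 608 CPM in the plus-named ones. The Lin-named values lay inside the plus-named range, and the log2 fold change was -0.14 (SE 0.19, edgeR adjusted p = 0.661), or 0.07 without bone 2. Ldha likewise had 1650, 1492 and 1363 CPM against 1560, 2096, 1507, 1392 and 1111 CPM, a log2 fold change of -0.14 (SE 0.18, edgeR adjusted p = 0.654). Pgk1 and Pdk1, a kinase of pyruvate dehydrogenase, were at -0.21 and -0.31, and Pgam1 at -1.27 (edgeR adjusted p = 0.145). All 10 upper glycolytic genes were below 0, from -0.44 (Pfkm) to -2.79 (Aldoc), and of these only Tpi1 passed.

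None of the 4 carriers passed the test. Slc2a1 had 7.99, 5.02 and 0.369 CPM in the Lin-named libraries and 22.3, 54.7, 55.1, 25.0 and 18.3 CPM in the plus-named ones. All 3 Lin-named libraries were below all 5 plus-named ones, yet the log2 fold change of -3.74 (SE 1.02) did not pass (edgeR adjusted p = 0.0647). It passed with library totals in place of TMM factors (edgeR adjusted p = 0.0431) and by DESeq2 (adjusted p = 5.58e-05), and not by limma-voom (adjusted p = 0.136). Slc2a3, the high-affinity glucose carrier GLUT3, had 9.15, 20.3 and 33.7 CPM against 7.92, 61.0, 21.5, 13.8 and 15.3 CPM, a log2 fold change of -0.18 (SE 0.75). Slc16a3 was at -2.10 (SE 0.64, edgeR adjusted p = 0.0864). Slc16a1 had 797, 1062 and 816.5 CPM against 382, 298, 393, 612 and 833 CPM, a log2 fold change of 1.005 (SE 0.33, edgeR adjusted p = 0.102), and fibrous 4 of the plus-named libraries reached the Lin-named range.

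In the oxygen-sensing system, Egln3 (chr12:54178981-54203860), an oxygen sensor that HIF itself induces, had 0, 0.201 and 0.123 CPM in the Lin-named libraries and 19.4, 17.4, 4.15, 3.42 and 1.30 CPM in the plus-named ones. The Lin-named values rest on 0, 2 and 2 counts, so the fitted log2 fold change of -6.17 (SE 1.46, edgeR adjusted p = 0.0446) depends on the prior count, and the call was lost with any single library left out (adjusted p = 0.0525 to 0.141). Egln1, the main oxygen sensor, had 0.129, 0 and 4.62 CPM in the Lin-named libraries (2, 0 and 75 counts). It had 6.72 to 11.5 CPM in the plus-named ones (edgeR adjusted p = 0.205). Hif1a had 7.93, 0.803 and 12 CPM against 54.4, 35.4, 46.4, 59.9 and 28.4 CPM. Its groups were fully apart, with a log2 fold change of -2.71 (SE 0.77) that did not pass (edgeR adjusted p = 0.0715, and 0.131 by limma-voom), while DESeq2 called it (adjusted p = 0.00134).

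HIF targets with other roles did not pass the test. Vegfa had 27.0, 0.401 and 10.3 CPM in the Lin-named libraries and 89.0, 17.9, 38.5, 27.8 and 12.2 CPM in the plus-named ones. Bone 3 lay among the plus-named libraries and bone 4 far below them, and the log2 fold change was -1.72 (SE 1.13, edgeR adjusted p = 0.372), with -0.90 without bone 1 and -2.77 without bone 3. Car9 had 3.87, 0.100 and 0.923 CPM against 30.1, 9.66, 8.77, 0 and 1.38 CPM, a log2 fold change of -2.69 (SE 1.87, edgeR adjusted p = 0.399), or -1.72 without fibrous 2. Ndrg1, a stress-response gene, and Ankrd37, a small HIF target, were at -1.38 and -1.92 (edgeR adjusted p = 0.526 and 0.496).

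Markers of other cell types moved with the token. The erythroid sum was 253372 to 616088 CPM in the Lin-named libraries and 35804 to 89462.5 CPM in the plus-named ones, with 10 of 11 genes wholly above in the Lin-named libraries (12.2% of all genes) and 8 called higher (3.15% of all genes). The marrow stromal sum was 23.4 to 33.6 CPM against 970 to 11804 CPM, with 7 of 12 genes called lower (5% of all genes) and 2 at 0 in all 3 Lin-named libraries. Osteoblast and chondrocyte sums were 1649 to 7827 against 27799 to 87929 CPM and 519 to 2310.5 against 9913 to 47082 CPM, while the neutrophil sums overlapped (10894 to 33325 against 798 to 38574 CPM). With an erythroid score as a further term, 0 genes and 0 members passed by edgeR (371 genes at an unadjusted p under 0.05), the members' median was -0.10 and Bnip3l was at 0.32. The erythroid sums of the token groups do not overlap, so token and erythroid content cannot be told apart.

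Bnip3l followed the erythroid sum across all 13 libraries, including those without the Lin token. It was lowest in bone 5 (99.9 CPM), which had the lowest erythroid sum, and next lowest in fibrous 7 (104 CPM) and fibrous 6 (132 CPM), which had the next sums of 15272 and 22772 CPM. Fibrous 1 and bone 6, with sums of 155486 and 92049 CPM, had 588 and 381 CPM of Bnip3l. Both orders were the same in all 13 libraries except that bone 2 and fibrous 4 changed places. This order is a description over libraries that differ in name series and token, and it was chosen after the values were seen.

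**Figure D3:**
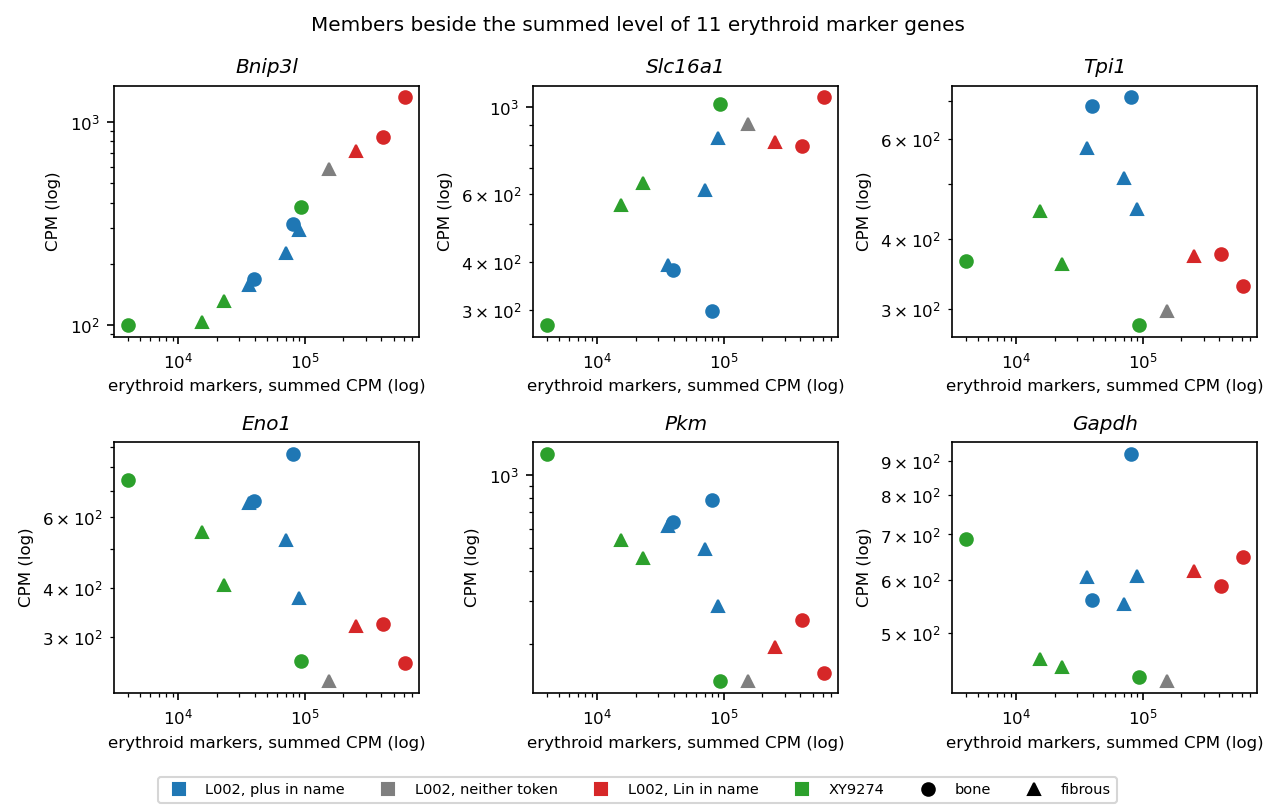
CPM of 6 members (vertical, log axis) against the summed CPM of 11 erythroid marker genes (horizontal, log axis) in each of the 13 libraries; colour gives the name series and token, circles are bone and triangles fibrous. Bnip3l runs along a line from 99.9 CPM in bone 5 to 1316 CPM in bone 4, while Tpi1, Eno1 and Pkm are low in the 5 libraries with the largest sums (the Lin-named ones, fibrous 1 and bone 6). Tpi1 is also low at the other end, with 365 CPM in bone 5 and 360 CPM in fibrous 6 beside 375 CPM in the Lin-named bone 3, and Gapdh shows no such order.

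The third comparison set the 4 XY9274 libraries against the 9 L002 libraries, as the series term of the tissue fit. Over the 31 members, 13 fold changes were below 0, against 47.8% of genes. Slc2a3 alone was called, as higher in XY9274 (1 of 31 members, against 1.89% of genes called higher and 2.16% called in either direction by edgeR). Slc2a3 (chr6:122727809-122801640) had 370, 64.7, 126 and 64.01 CPM in bone 5, bone 6, fibrous 6 and fibrous 7, and between 7.92 and 61.0 CPM, with a median of 15.3, in the L002 libraries. All 4 were above all 9, though by a narrow margin over bone 2. It was the only member with groups apart, against 5.05% of genes with XY9274 wholly above. The log2 fold change was 2.74 (SE 0.56, edgeR adjusted p = 0.0285).

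That call rested on several libraries. It was lost without bone 4, bone 5, fibrous 3 or fibrous 6 (adjusted p = 0.0612, 0.172, 0.0571 and 0.108), and without the 3 Lin-named libraries (adjusted p = 0.0744, log2 fold change 2.63). Without bone 5 the log2 fold change was 2.03. Gpi1 had 1143, 179, 299 and 221 CPM in the XY9274 libraries, a mean of 460.5 ± 458 against 143 ± 64.5 CPM, and a log2 fold change of 1.54 (SE 0.42, edgeR adjusted p = 0.0755), or 0.80 without bone 5. Hk2 had 42.9, 6.73, 10.8 and 15.3 CPM against 0.502 to 11.5 CPM in L002, a log2 fold change of 2.41 (SE 0.79, edgeR adjusted p = 0.123). DESeq2 called 4 members, against 14.9% of genes. All 12 neutrophil and 10 pan-leukocyte markers were above 0 in this comparison with none called, and bone 5, the highest library for 9 members, had the largest neutrophil sum; their part in these values was not tested.

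Log2 ratios of counts + 1 of related genes within a library do not depend on the scaling factors between libraries. With few counts they do depend on the counts reached. Eno2 had 0 counts in bone 2 and bone 4, yet Eno2/Eno1 was -14.35 and -11.34. In all, 9 ratios were tested by 2-sided exact permutation tests, with p adjusted over the 9. Between fibrous and bone none passed (adjusted p = 0.748 for each, 1716 splits, 0 of 9 at an unadjusted p under 0.05). These tests take no account of the name series. Within the L002 libraries alone Egln3/Egln1 differed by -3.51 (fibrous minus bone, exact permutation p = 0.0317, adjusted p = 0.179) and Aldoc/Aldoa by -2.08 (exact permutation p = 0.0397, adjusted p = 0.179). In the XY9274 libraries both differences had the other sign, 1.31 and 3.40, with 2 libraries a group. All 4 differences lean on libraries with few counts. Egln3 had 0, 2, 1 and 2 counts in bone 3, bone 4, fibrous 1 and fibrous 5, and Egln1 had 2 and 0 in bone 3 and bone 4. Aldoc had 1 count in fibrous 5 and 2 in bone 6, where Egln3 had 0. Between Lin-named and plus-named libraries none passed after adjustment either, where 56 splits allow no p below 0.0179.

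The Bnip3/Bnip3l ratio was -8.71, -6.98 and -5.56 in the Lin-named libraries and -0.99, -3.18, -2.39, -3.48 and -4.53 in the plus-named ones. The groups did not overlap, with a difference of -4.17 on the log2 scale (exact permutation p = 0.0179, the smallest possible, adjusted p = 0.0804). Slc2a1/Slc2a3 was -0.19, -1.99 and -6.29 against 1.49, -0.16, 1.36, 0.86 and 0.26, a difference of -3.59 with the same p and adjusted p. The margin was small, since bone 3 at -0.19 and bone 2 at -0.16 nearly met. Slc16a3/Slc16a1 differed by -3.19 (exact permutation p = 0.0357, adjusted p = 0.107), and the other 6 ratios had adjusted p from 0.161 to 0.821.

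**Figure D4:**
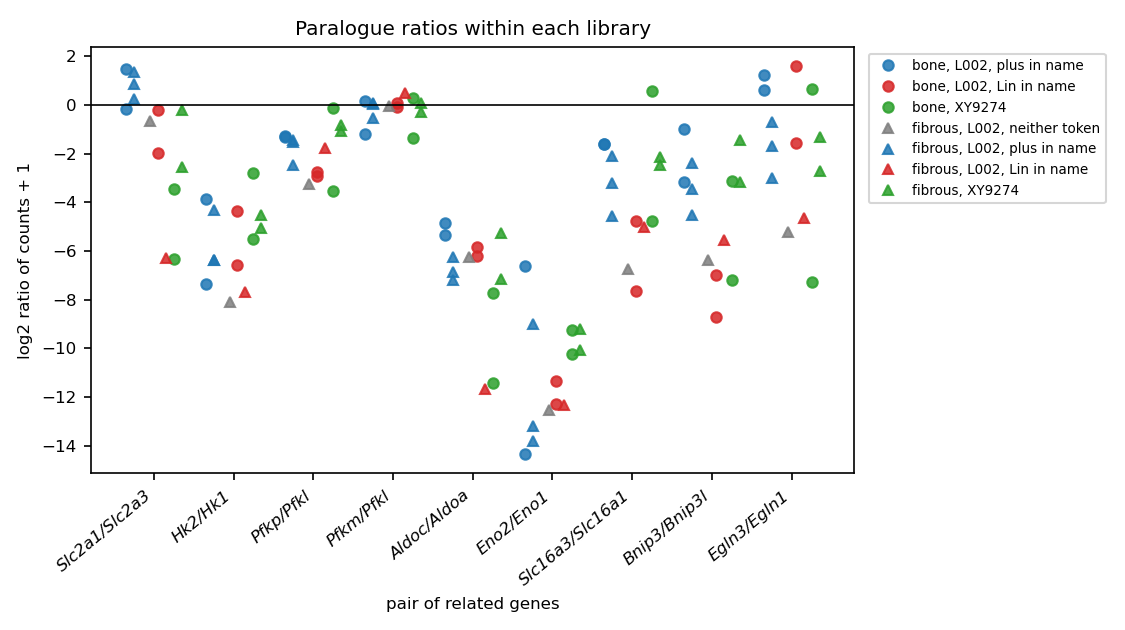
Log2 ratio of counts + 1 (vertical) of 9 pairs of related genes (horizontal) in each library; colour gives the name series and token, circles are bone and triangles fibrous, and the horizontal line marks equal counts. In the Bnip3/Bnip3l column the 3 red Lin-named points, -8.71 to -5.56, lie below the 5 blue plus-named points, -4.53 to -0.99.

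Genes around the members were read from 6 lists of the same pathways. Between fibrous and bone no gene of any list passed edgeR's test, with medians from -0.28 (pentose phosphate, 7 of 7 below 0) to 0.34 (HIF system, 2 of 7 below 0). The 5 genes with an unadjusted p under 0.05 all had an edgeR adjusted p = 0.873. Pdk4, another kinase of pyruvate dehydrogenase, had 10.2 ± 10.2 CPM in fibrous tissue and 0.382 ± 0.563 CPM in bone, a log2 fold change of 4.86 (SE 1.62). Pdk4 had 0 to 8 counts in bone 1 to 5, 44 in bone 6 and 1 in fibrous 1, so this estimate rests on values near 0. Pygm and Pygl, the muscle and liver forms of glycogen phosphorylase, were at 6.08 (SE 2.10) and -1.16 (SE 0.48). Pygm had 3.51 ± 2.81 CPM in fibrous tissue and 0.612 ± 1.15 CPM in bone. It had 0 counts in bone 1 to 4 and in fibrous 5, so its fitted fold change rests on values near 0. Arnt, the partner of HIF-1 alpha, was at 0.63 (SE 0.28), and Mpc1, a subunit of the mitochondrial pyruvate carrier, at -0.54 (SE 0.24). Between Lin-named and plus-named libraries, other hypoxia-induced genes had 5 of 20 called lower and 0 higher, against 5% and 3.15% of all genes. Their median was -2.05 and 18 were below 0, against -0.21 and 56.6% for all genes. Lox, the collagen cross-linking enzyme, fell from 251 ± 117 to 5.05 ± 6.39 CPM (log2 fold change -5.76, SE 0.76, edgeR adjusted p = 0.0149). Plod1, which hydroxylates collagen lysines, fell by 4.63 on the log2 scale (edgeR adjusted p = 0.0150). P4ha2, which hydroxylates collagen prolines, fell by 3.48 (edgeR adjusted p = 0.0194). These 3 genes serve collagen assembly. Marrow stromal, osteoblast and chondrocyte markers also had medians below 0 in this comparison (-6.94, -3.91 and -3.73). A link between these falls was not tested.

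In the HIF system list 1 of 6 genes tested was called lower (5% of all genes): Epas1, which encodes HIF-2 alpha, had 1, 0 and 1 counts in the Lin-named libraries against 8.68 ± 6.73 CPM in the plus-named ones (edgeR adjusted p = 0.0277). The lists of isoenzymes, pyruvate entry and pentose phosphate each had 1 gene called higher, of 9, 12 and 7 tested (3.15% of all genes). Bpgm, which makes the 2,3-bisphosphoglycerate that lowers the oxygen affinity of haemoglobin in red cells, rose from 883 ± 361 to 3708.5 ± 937 CPM (log2 fold change 2.08, SE 0.40, edgeR adjusted p = 0.0275). Mpc2, the partner of Mpc1, rose by 1.505 (SE 0.31, edgeR adjusted p = 0.0326) and Rpe, ribulose-phosphate epimerase, by 1.04 (SE 0.19, edgeR adjusted p = 0.0253) on the log2 scale. No gene of the 10 in the glycogen list passed (edgeR, 4 at an unadjusted p under 0.05). Most of these 7 calls depended on single libraries. With 1 of the 8 left out in turn, Lox and Plod1 passed in 7 fits, lost only without bone 4, and P4ha2 in 5, lost without bone 3, bone 4 or fibrous 3. Epas1 passed only without bone 1 or fibrous 4, Bpgm only without fibrous 2 or fibrous 4, Mpc2 only without fibrous 4 or fibrous 5 and Rpe only without fibrous 4. Adjusted p ranged from 0.0127 to 0.0864 over these fits. The calls of Epas1, Lox and Plod1 were lost by limma-voom (adjusted p = 0.0643, 0.0511 and 0.0840). That of Rpe was lost when library totals replaced the TMM factors (log2 fold change 0.57, edgeR adjusted p = 0.160). None of the 7 passed with the replicate block (edgeR adjusted p from 0.0847 to 0.326) or with the erythroid score. The block fit rests on the paired libraries alone and leaves few degrees of freedom, so calls lost there say little.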

How the data were processed

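The authors deposited a single matrix of raw counts per gene, whole numbers for 23211 mouse Ensembl gene IDs in 13 libraries. The submitters' processing notes name edgeR and the builds mm10 and hg38. The aligner, counter, annotation and strand setting were not given in the sources used here. Symbols and coordinates came from GENCODE M21 (mm10), which held every ID, and the union of M21 exons gave the lengths for CPM per kb. Library totals ran from 16162321 to 44302166 counts, so counting error is small except for genes with a few counts.

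The tests used edgeR 4.0.16 in R 4.3.3 with TMM factors, filterByExpr, robust quasi-likelihood F tests and Benjamini-Hochberg adjustment over all genes tested (13294 between tissues, 13450 between name tokens), with a threshold of 0.05. The tissue fit had the name series as a term, and the token fit had tissue. The SE is the absolute log2 fold change over the square root of F. The count steps were tested on simulated data. DESeq2 1.42.0, limma 3.58.1 (voom with quality weights), other factors, no filter, other terms and leaving out libraries were the alternatives. Ratios of related genes used exact permutation tests.

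The members and all lists were chosen with earlier results of these data known. Full values were given for the 6 members with the smallest p between tissues, the 6 between tokens, the 3 between name series and 6 fixed genes (Hif1a, Vegfa, Slc2a1, Ldha, Gapdh and Car9), with up to 3 genes per pathway list and comparison. Slc16a1, Slc2a3, Bnip3 and Egln1 in the token comparison were added after their values were seen. Summed endothelial markers (7 genes) were 16.4 to 78.0 CPM per library, skeletal muscle markers (5 genes) 14.9 to 113 CPM and macrophage markers (8 genes) 198 to 10457 CPM.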

Additional observations from a re-analysis of the deposited data

Results flagged for a closer look

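In 80 groups of library values tested for a stray library, 3 held a highest or lowest value whose gap to the next was large for its group, where chance gives about 4. Eno2 in bone 1 had 6.66 CPM, with the next bone library at 0.600 CPM. The log2 ratio Aldoc/Aldoa in fibrous 5 was -11.66, with the next fibrous library at -7.20, and rests on 1 count of Aldoc. The log2 ratio Egln3/Egln1 in bone 6 was -7.29 (next bone library -1.58), and rests on 0 counts of Egln3.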

How the results depend on the processing

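Between fibrous and bone, 0 members passed under every alternative run, and the count of genes was 0 in each but DESeq2 (169). Signs turned there for Vegfa (1.26 by limma-voom, 0.0338 without libraries low in Lepr), Slc2a1 (-0.11 in L002 alone), Ldha (0.24 in XY9274 alone) and the ratios Slc2a1/Slc2a3 (-0.68) and Pfkp/Pfkl (-0.0295) in L002 alone. Between Lin-named and plus-named libraries the counts of genes and members were 3456 and 14 by DESeq2, 566 and 4 by limma-voom, and 0 and 0 with an erythroid score, where Vegfa (2.56), Ldha (0.27), Car9 (3.23) and Bpgm (-0.0953) turned sign. With counts + 10, Hk2/Hk1 was 0.0922 and Eno2/Eno1 0.65. Between name series, DESeq2 gave 1982 genes and 4 members, and 0 members passed without the Lin-named libraries. The cause was not tested in any of these.

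With each library left out in turn, the token comparison gave 138 to 992 genes (main count 1097; 144 without bone 3 or bone 4, 138 without fibrous 3, 264 without fibrous 2, 368 without bone 1, 470 without bone 2) and 0 to 4 members, and the series comparison 87 to 470 genes (main count 287) and 0 to 2 members. Ranges that crossed 0 between tissues were -0.81 to 0.28 for Vegfa, -0.19 to 0.89 for Slc2a1, and, as ratios, -0.17 to 1.62 for Slc2a1/Slc2a3, -0.0885 to 0.60 for Pfkp/Pfkl, -1.23 to 0.42 for Aldoc/Aldoa, -1.50 to 0.0416 for Eno2/Eno1 and -1.31 to 0.34 for Slc16a3/Slc16a1. Between tokens they were -0.27 to 0.0703 for Gapdh, -1.49 to 0.18 for Hk2/Hk1, -2.84 to 0.0601 for Aldoc/Aldoa, -1.34 to 0.59 for Eno2/Eno1 and -2.41 to 0.72 for Egln3/Egln1.

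Between tissues no paired analysis was possible because replicate numbers follow accession order and pair no libraries. With a replicate block for the 2 pairs of libraries that share a name token, 0 genes and 0 members passed by edgeR (2095 genes at an unadjusted p under 0.05, smallest adjusted p = 0.0804), while the members' median log2 fold change was -1.47 (-1.35 without the block) and 28 of 30 were below 0 in both fits. Every other library is a block of its own in that fit. Few degrees of freedom remain, so the absence of calls says little. Correlations of deviations from the token means were 0.0471 and 0.0798 within the 2 pairs. Those of unpaired libraries were not computed, so these values do not show whether the pairing held.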
